A study of Mus musculus with 10 samples.

Results

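The genes described here encode 8 secreted proteins of the acute-phase and antimicrobial response of mouse macrophages. They are lipocalin 2 (*Lcn2*), serum amyloid A3 (*Saa3*), pentraxin 3 (*Ptx3*), secretory leukocyte peptidase inhibitor (*Slpi*), the whey acidic protein domain genes *Wfdc17* and *Wfdc21*, and the lysozymes *Lyz1* and *Lyz2*. They were chosen by symbol, through their Ensembl identifiers, and are 8 of the 43432 genes in the count table. RNA was sequenced from RAW264.7, 1 established mouse macrophage-like line, in 5 groups of 2 libraries. The first group (DMSO) received the solvent alone at 0.5% and no LPS. The second (DMSO + LPS) received 0.5% DMSO and lipopolysaccharide (LPS) at 1 µg/mL, and the remaining 3 groups received the unsaturated fatty acid **1** (9-keto-hexadec-7-enoic acid with an E double bond at carbon 7) at 3.2, 10 or 32 µM with the same LPS. LPS followed 1 h after compound or solvent, and the RNA was taken at 12 h.

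LPS, a component of the outer membrane of Gram-negative bacteria, is sensed on macrophages by the receptor TLR4, which switches on NF-κB. Some of its target genes respond at once, while others, *Lcn2* among them, also need factors made in the first wave, such as IκBζ (encoded by *Nfkbiz*) and C/EBP proteins. Lipocalin 2 withholds iron from bacteria by binding their siderophores, *Saa3* is the serum amyloid A gene used outside the liver, pentraxin 3 tags microbes for uptake, SLPI blocks neutrophil elastase, and lysozyme cuts the bacterial cell wall.

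Levels are given as CPM, counts scaled to 1e6 reads of the TMM-adjusted library total. Library totals were between 45966803 and 58976377 counts, so that 3 counts, the upper limit that a count of 0 allows, correspond to between 0.0510 and 0.0664 CPM. These limits cover counting error only. A gene was called when it differed at least 1.5-fold with a Benjamini-Hochberg adjusted p below 0.05 in edgeR's quasi-likelihood test, fitted over all 10 libraries and 14172 genes. The labels number 2 biological replicates per group without saying whether they were separate cultures, so the p-values measure the spread between these libraries. An exact permutation test of 2 libraries against 2 cannot go below p = 0.333. In bulk RNA, fewer cells expressing a gene and less RNA per cell cannot be told apart.

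The labels were checked with *Tnf*, *Nos2* and *Nqo1*. *Tnf* was between 27.6 and 28.4 CPM in DMSO and between 1239.5 and 1461 CPM in the 8 libraries with LPS. *Nos2* fell and *Nqo1* rose with the dose of **1**, with no overlap between groups. Macrophage markers were present in every library, where 8 genes summed to between 4793 and 6161 CPM. Replicate 1 at 10 µM stood apart. The epithelial markers *Epcam*, *Cdh1*, *Krt8* and *Krt18* summed to 38.2 CPM in this library, 5.78 CPM in replicate 1 at 3.2 µM and at most 0.0850 CPM elsewhere, and they had 0 counts in both libraries at 32 µM. Replicates also differed along transcript length. The median deviation of 667 genes with transcripts under 1000 nt was 0.03 against -0.30 (log2) in DMSO, 0.25 against -0.10 at 10 µM and 0.12 against -0.23 at 32 µM, and at most 0.16 from 0 in the other 4 libraries. The principal transcripts of *Lcn2*, *Saa3*, *Slpi* and *Wfdc17* are in this length range. The share of counts in cytoplasmic and mitochondrial rRNA genes was higher in the replicate with the lower deviation, at 0.160% against 0.109% in DMSO, 0.130% against 0.0923% at 10 µM and 0.247% against 0.0778% at 32 µM. DMSO + LPS and 3.2 µM held 0.0835% to 0.0901%. The part of this share in the results was not tested. Values without replicate 1 at 3.2 or 10 µM, replicate 2 at 32 µM or either DMSO library are given beside the results they move most.

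**Figure D1:**
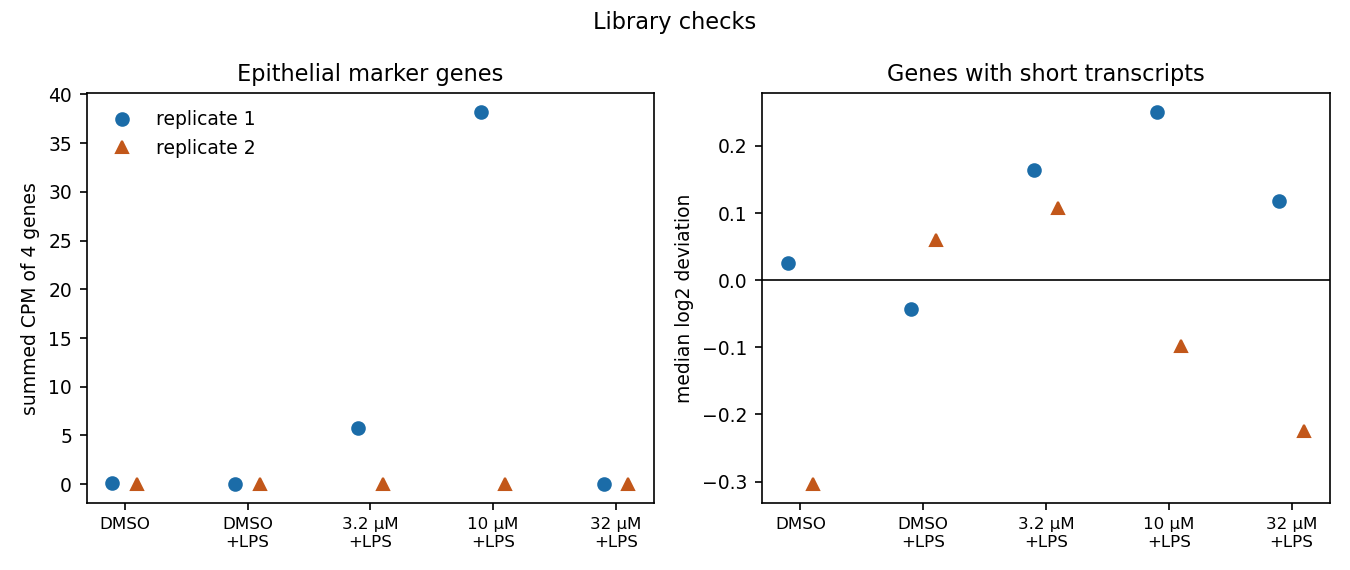
Left, the sum of 4 epithelial marker genes in CPM in each library, which is 38.2 in replicate 1 at 10 µM, 5.78 in replicate 1 at 3.2 µM and near 0 in the others. Right, the median log2 deviation of 667 genes with transcripts under 1000 nt from their mean over the 10 libraries. Circles are replicate 1 and triangles replicate 2 of each group.

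Of the 8 genes, 6 passed the filter on low counts. *Ptx3* (ENSMUSG00000027832, chr3:66219910-66225805, plus strand, GRCm38, inside *Veph1* on the opposite strand) had 1 count in replicate 1 at 32 µM and 0 counts in the other 9 libraries. *Wfdc21* (ENSMUSG00000051748, chr11:83746940-83752642, plus strand) had between 1 and 6 counts per library and 23 in all. Its 7 counts in DMSO + LPS against 3 in DMSO gave a ratio of 2.59 with an exact 95% counting interval of 0.591 to 15.5. Neither gene was measurable at this depth, and both were left out of the tests.

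The RefSeq promoter table (GRCm38.p6) held 7 of the 8 genes, without *Wfdc21*. The 250 bases upstream of each RefSeq start were searched on both strands for the C/EBP motif TTGCNNAA, which 9.55% of 27025 promoters held, and which occurred once in each of *Lcn2*, *Saa3*, *Ptx3*, *Slpi* and *Lyz1*. In GENCODE M21, 197 of the 250 bases of *Lcn2*, 65 of *Wfdc17*, 49 of *Lyz2* and 24 of *Saa3* lie in annotated exons, and the windows of *Lcn2* and *Slpi* lie inside the annotated gene. The interferon-stimulated response element, held by 3.04% of promoters, occurred in *Saa3*, and the ETS motif GGAAGT (20%) in *Slpi*, *Lyz1* and *Lyz2*. The AP-1 motif TGANTCA (6.87%), the antioxidant response element TGACNNNGC (10.1%), the NF-κB consensus (7.01%) and the TATA box TATAAA (13%) were in none of the 7 windows. The C/EBP matches are shown with up to 10 bases on either side, since the genes that hold them include both those that fell with **1** and those that did not, and capitals mark the C/EBP motif, which overlapped no other motif searched. The same offsets in *Lyz2*, where the motif is not matched, follow *Lyz1*. A match is a description of letters and not evidence of a bound site.
Lcn2 (chr2:32387938-32387965, minus strand): gcccttcctgTTGCTCAAccttgcacag
Saa3 (chr7:46715758-46715785, minus strand): gtaagtgggaTTATGCAAgatcaaacag
Ptx3 (chr3:66219820-66219847, plus strand): tggtttaacaTTGTGCAAcctcttcagc
Slpi (chr2:164356731-164356757, minus strand): gaatttgtaTTGAGCAAtaggttagag
Lyz1 (chr10:117293060-117293087, minus strand): agcccaatctTTAAGCAAtttgaaataa
Lyz2 (chr10:117282464-117282491, minus strand): ctcaaatgtttaagcattttaaaataaa

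The longer windows of *Saa3* and *Wfdc17* are given because both genes were strongly raised by LPS and lowered at 32 µM while differing in these letters. They end where the first annotated exon begins. In *Saa3* the first stretch in capitals is the interferon-stimulated response element and the second the C/EBP motif, and in *Wfdc17* none of these motifs was matched.
Saa3 (chr7:46715701-46715926, minus strand): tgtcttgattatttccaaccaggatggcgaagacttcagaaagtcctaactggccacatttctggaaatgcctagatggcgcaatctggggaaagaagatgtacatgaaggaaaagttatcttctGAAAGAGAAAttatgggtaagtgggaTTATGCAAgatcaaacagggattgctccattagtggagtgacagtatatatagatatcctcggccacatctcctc
Wfdc17 (chr11:83703806-83703990, plus strand): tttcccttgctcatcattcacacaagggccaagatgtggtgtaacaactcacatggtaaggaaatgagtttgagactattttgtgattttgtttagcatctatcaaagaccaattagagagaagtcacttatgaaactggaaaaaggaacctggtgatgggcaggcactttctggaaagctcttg

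LPS raised 4 of the 6 genes tested, *Lcn2*, *Saa3*, *Slpi* and *Wfdc17*, and lowered *Lyz2*. These 5 calls stand beside 28.2% of all genes called in the same comparison (14.6% higher and 13.6% lower). *Lcn2* and *Slpi* passed the filter on low counts only through libraries with LPS, so against DMSO a fall could hardly be called for them. At 32 µM, **1** lowered *Lcn2*, *Saa3*, *Wfdc17* and *Lyz2* relative to DMSO + LPS, 4 of 6 beside 4.18% of all genes (2.91% lower and 1.27% higher). At 10 µM *Lcn2* alone was called, beside 0.861% of all genes. At 3.2 µM 0 of 6 genes were called, as were 0% of all genes. At this dose 600 of all genes and 0 of the 6 had an unadjusted p below 0.05, and DESeq2's Wald test also called 0 of the 6. The median log2 fold change of the 6 genes was -0.84 at 32 µM, -0.43 at 10 µM and 0.00 at 3.2 µM, beside 0.01, 0.02 and 0.00 over all genes tested.

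**Figure D2:**
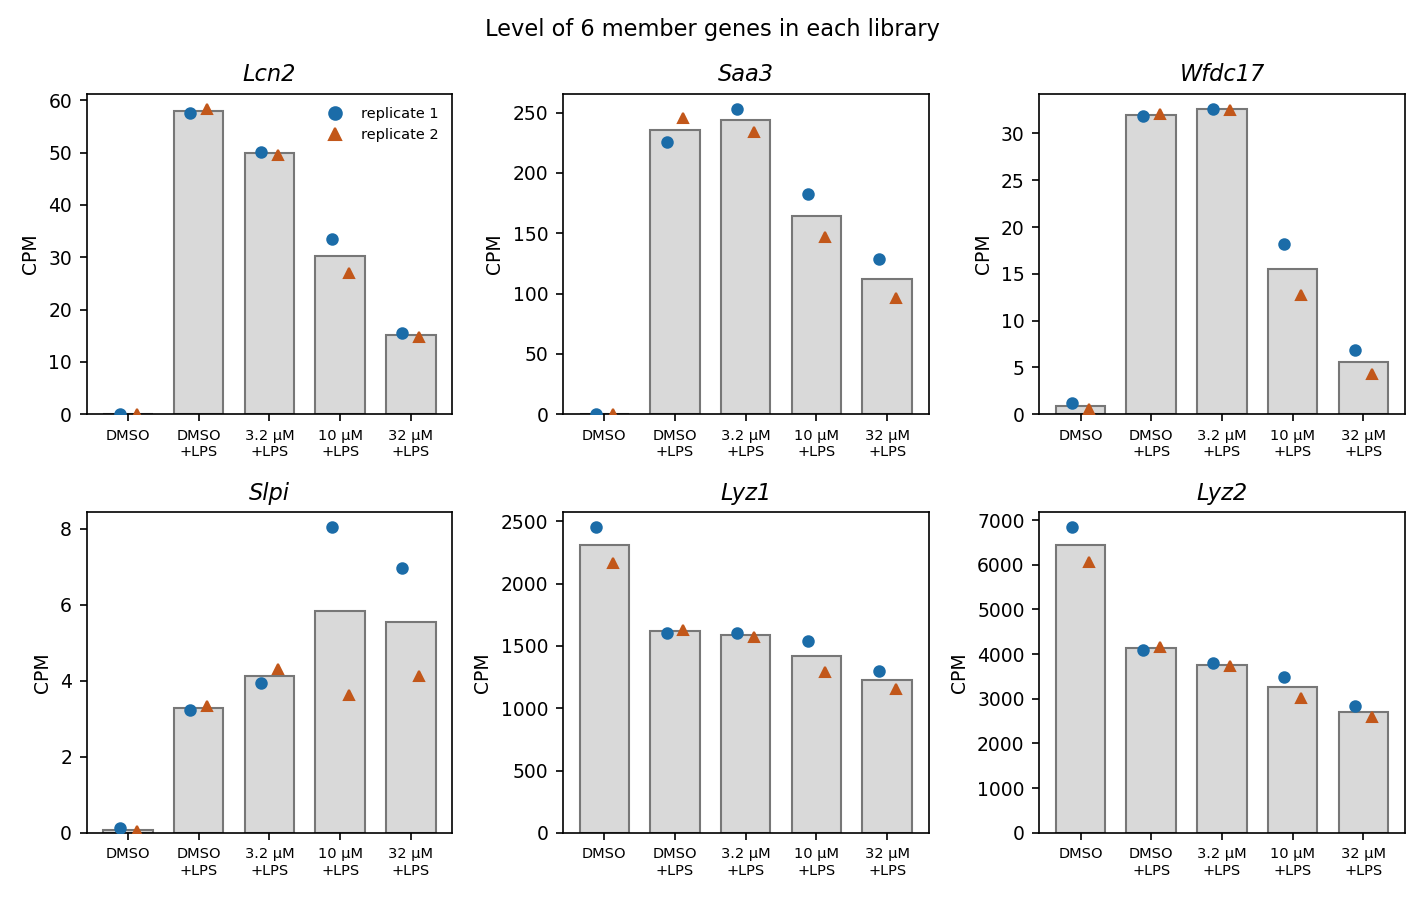
Level of 6 secreted-protein genes in CPM (linear axes from 0, each with its own scale) in the 5 groups. Grey bars are the mean of the 2 libraries, circles replicate 1 and triangles replicate 2. *Lcn2*, *Saa3* and *Wfdc17* were near 0 in DMSO, high in DMSO + LPS and lower at 10 and 32 µM, *Slpi* was spread widely at 10 and 32 µM, and both lysozymes were highest in DMSO.

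*Lcn2* (ENSMUSG00000026822, chr2:32384633-32388252, minus strand, principal transcript of 915 nt) was at or near 0 counts without LPS. The DMSO libraries held 0 and 1 counts, and the DMSO + LPS libraries 3292 and 2742 counts (57.5 and 58.4 CPM). With **1** the libraries held 50.2 and 49.5 CPM at 3.2 µM, 33.4 and 27.0 CPM at 10 µM, and 15.6 and 14.8 CPM at 32 µM. Each dose lay below the next lower one in both libraries, and every library with LPS lay above both without.

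The counts of *Lcn2* in DMSO + LPS against DMSO gave a ratio of 6691, with an exact 95% counting interval from 1200.4 to 264317 that is set by the single read in DMSO. Relative to DMSO + LPS, *Lcn2* changed by -1.93 on the log2 scale at 32 µM (SE 0.115, adjusted p = 3.13e-05), a 3.82-fold decrease, and the call held under all 21 alternative settings tried, with -1.89 without replicate 2 at that dose (adjusted p = 6.13e-04). The change at 10 µM was -0.94 (SE 0.111, adjusted p = 0.00500). It was -1.10 without replicate 1 at that dose (adjusted p = 0.00428), and the call was lost without either DMSO + LPS library (adjusted p = 0.0625 and 0.0619).

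At 3.2 µM *Lcn2* differed from DMSO + LPS by -0.22 (95% interval -0.47 to 0.04, adjusted p = 0.999), and by -0.23 without replicate 1 at that dose. The steps between doses were -0.72 from 3.2 to 10 µM (adjusted p = 0.0331, beside 0.254% of all genes called in that comparison) and -0.99 from 10 to 32 µM (adjusted p = 0.00313, beside 1.32%). Without replicate 1 at 10 µM these steps were -0.88 (adjusted p = 0.0206) and -0.83 (adjusted p = 0.00488), and without replicate 2 at 32 µM the second was -0.95 (adjusted p = 0.0314). Without replicate 1 at 3.2 µM the first was -0.71 (adjusted p = 0.321). *Lcn2* was the 1 member called in each of these steps, and the call from 3.2 to 10 µM was lost under 9 of 21 settings, among them leaving out either library of DMSO + LPS, 3.2 µM or 32 µM. Of the increase that LPS produced over DMSO, 86.0% was left at 3.2 µM, 52.1% at 10 µM and 26.2% at 32 µM. *Lcn2* is also a gene of neutrophil granules. Of 10 neutrophil markers 3 were tested, *S100a8*, *Camp* and *Mmp8*. *Ngp* had 0 counts in all libraries and *Elane* at most 2. The sum of the 10 was 1.31 and 0.617 CPM in DMSO, 7.06 and 6.96 CPM in DMSO + LPS, 8.20 and 7.17 CPM at 3.2 µM, 8.88 and 3.89 CPM at 10 µM, and 3.11 and 2.57 CPM at 32 µM. Like *Lcn2* it was higher in DMSO + LPS than in DMSO and lower at 32 µM than in DMSO + LPS. At 3.2 µM both libraries, and at 10 µM replicate 1, lay above DMSO + LPS. In the latter, the library with the epithelial genes, *Ltf*, *Ly6g* and *S100a9* held 1.35, 0.838 and 0.344 CPM, against at most 0.108 CPM elsewhere. In DMSO + LPS the sum consisted mostly of *S100a8*, which was at 6.44 and 6.26 CPM there and at 5.57 and 2.81 CPM at 10 µM. *S100a8* (log2 2.98, adjusted p = 4.39e-04) and *Camp* (0.0340 and 0 CPM in DMSO, 0.210 and 0.277 CPM in DMSO + LPS, adjusted p = 0.00642) rose with LPS, *S100a8* alone was called lower at 32 µM, and all 3 were higher at 32 µM than in DMSO. *Camp* and *Mmp8* (0.136 and 0.0176 CPM in DMSO) passed the filter only through libraries with LPS, so against DMSO a fall could hardly be called for them. The part of the neutrophil markers in the result was not tested.

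*Saa3* (ENSMUSG00000040026, chr7:46711998-46715700, minus strand, transcript of 555 nt) was the most abundant of the LPS-raised genes. It held 14 and 6 counts in DMSO (0.238 and 0.106 CPM) and 226 and 245 CPM in DMSO + LPS. The libraries with **1** held 253 and 234 CPM at 3.2 µM, 182 and 147 CPM at 10 µM, and 129 and 96.0 CPM at 32 µM. The 3.2 µM libraries overlapped with DMSO + LPS, whereas those at 10 and 32 µM lay below it and did not overlap with each other.

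LPS raised *Saa3* 1343-fold (log2 10.39, SE 0.292, adjusted p = 5.21e-08), with log2 values of 11.09 without replicate 1 of DMSO and 9.92 without replicate 2. At 32 µM it fell by 1.07 on the log2 scale (SE 0.166, adjusted p = 0.00497), a 2.10-fold decrease that was called under all 21 settings. This change was -0.87 without replicate 2 at 32 µM (adjusted p = 0.0243). The difference at 10 µM was -0.52 (adjusted p = 0.215), or -0.68 without replicate 1 at that dose (adjusted p = 0.159). With each library's short-transcript deviation in the fit it was -0.60 and was called (adjusted p = 3.39e-07). That deviation comes from these same libraries, and this was the only 1 of 21 settings that called *Saa3* at 10 µM. At 3.2 µM the difference was 0.05 (95% interval -0.33 to 0.43), and it was below 0 without replicate 1 at that dose (-0.0074). The increase left was 103% at 3.2 µM, 69.8% at 10 µM and 47.7% at 32 µM. The *Saa3* transcript was 69.2% identical to that of *Saa1* and 67.9% to that of *Saa2* with no shared window of 150 nt.

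*Wfdc17* (ENSMUSG00000069792, chr11:83703991-83706268, plus strand, transcript of 533 nt), which encodes a small whey acidic protein of activated macrophages and microglia, had the largest fold decrease of the 6 genes at 32 µM. It held 73 and 29 counts in DMSO (1.24 and 0.511 CPM), and 31.9 and 32.1 CPM in DMSO + LPS. The libraries with **1** held 32.6 and 32.5 CPM at 3.2 µM, 18.2 and 12.8 CPM at 10 µM, and 6.89 and 4.27 CPM at 32 µM. Both libraries at 10 µM lay below DMSO + LPS, and both at 32 µM lay lower again and above DMSO.

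LPS raised *Wfdc17* 36.2-fold (log2 5.18, SE 0.373, adjusted p = 1.03e-05), with log2 values of 5.96 without replicate 1 of DMSO and 4.67 without replicate 2. At 32 µM it fell by 2.52 on the log2 scale (SE 0.310, adjusted p = 0.00153), a 5.72-fold decrease called under all 21 settings, and by 2.22 without replicate 2 at that dose (adjusted p = 0.0108). The difference of -1.05 at 10 µM was not called (adjusted p = 0.146), also not without replicate 1 (-1.33, adjusted p = 0.132), and was called under 5 of 21 settings, among them the short-transcript fit (-1.19, adjusted p = 1.28e-06). The step from 10 to 32 µM, -1.47, missed the threshold (adjusted p = 0.0534) and passed it under 8 of 21 settings. It was -1.19 without replicate 1 at 10 µM (adjusted p = 0.171) and -1.17 without replicate 2 at 32 µM (adjusted p = 0.275). At 3.2 µM the difference from DMSO + LPS was 0.03 (95% interval -0.63 to 0.68), and 0.02 without replicate 1 at that dose. The increase left was 102%, 46.9% and 15.1% at 3.2, 10 and 32 µM. The fall of *Wfdc17* and that of *Lcn2* were not tested against each other.

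On chromosome 11, *Wfdc17* lies 39308 nt from *Ccl4*, a chemokine gene, and 2747 nt from *Wfdc18*, with *Wfdc21* beyond it. *Ccl4* rose with LPS (log2 6.34, adjusted p = 9.33e-08) and fell at 32 µM (-1.13, adjusted p = 0.00289). *Wfdc18* had 0 counts in both DMSO libraries, 0.192 and 0.256 CPM in DMSO + LPS, and 0.0204 and 0.0442 CPM at 32 µM. It had at most 12 counts in a library and passed the filter only through libraries with LPS. The call with LPS (adjusted p = 0.00981) could thus only be a rise, and *Wfdc18* was not called at 32 µM (adjusted p = 0.172). *Heatr6*, next to *Wfdc21* on the far side, changed by 0.42 with LPS and by -0.07 at 32 µM, both below the fold cutoff.

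**Figure D3:**
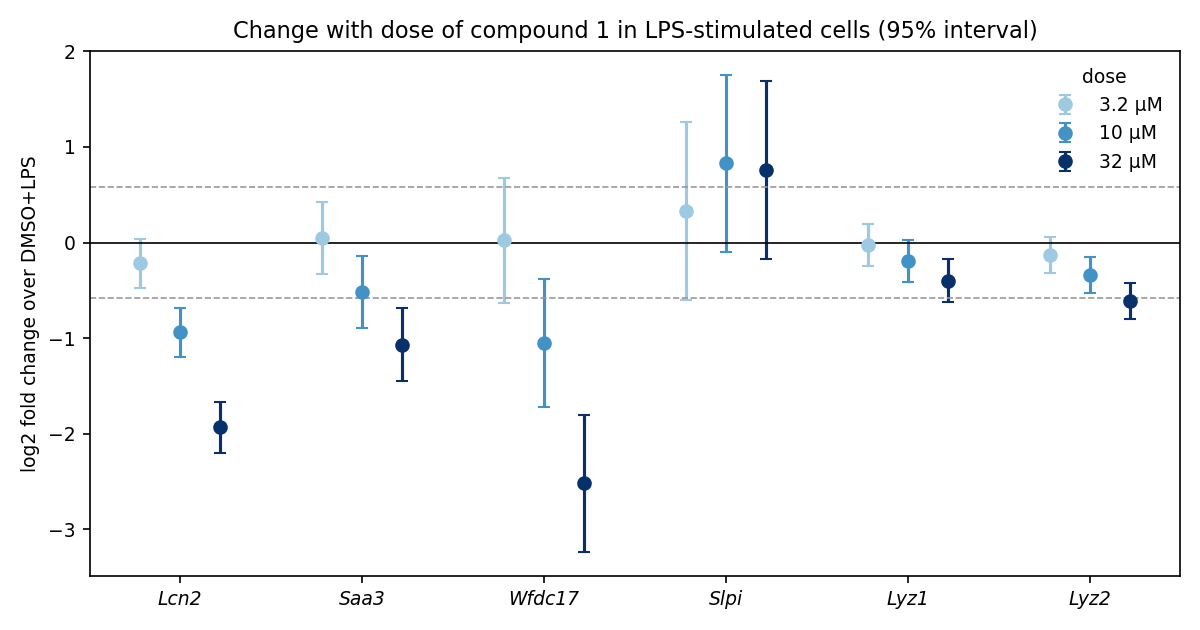
Log2 fold change of 6 genes at 3.2, 10 and 32 µM of **1** relative to DMSO + LPS, with 95% intervals from edgeR's quasi-likelihood fit. Dashed lines mark a 1.5-fold change and the solid line no change. At 32 µM the values were -1.93 for *Lcn2*, -1.07 for *Saa3*, -2.52 for *Wfdc17*, 0.76 for *Slpi*, -0.40 for *Lyz1* and -0.61 for *Lyz2*.

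*Slpi* (ENSMUSG00000017002, chr2:164354070-164389095, minus strand, transcript of 876 nt, with *Mir7678* inside the gene on the same strand) rose with LPS and was not called lower at any dose of **1**. It held 7 and 2 counts in DMSO (0.119 and 0.0352 CPM), and 185 and 157 counts in DMSO + LPS (3.23 and 3.34 CPM). The libraries with **1** held 3.95 and 4.31 CPM at 3.2 µM, 8.04 and 3.63 CPM at 10 µM, and 6.97 and 4.14 CPM at 32 µM. Every library with **1** lay above both DMSO + LPS libraries, but at 10 and 32 µM replicate 1 lay far above replicate 2.

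LPS raised *Slpi* 41.0-fold (log2 5.36, SE 0.603, adjusted p = 1.45e-04), with log2 values of 6.44 without replicate 1 of DMSO and 4.74 without replicate 2. The differences from DMSO + LPS were 0.33 at 3.2 µM (0.39 without replicate 1), 0.83 at 10 µM (95% interval -0.10 to 1.76, adjusted p = 0.485) and 0.76 at 32 µM (95% interval -0.17 to 1.69, adjusted p = 0.332), and none was called. At 10 µM the difference was 0.14 without replicate 1, the library with the epithelial genes, whose part in the value was not tested. At 32 µM, where the epithelial markers had 0 counts, the difference was 1.08 without replicate 2 and 0.33 without replicate 1. With each library's short-transcript deviation in the fit it was 0.86 and was called (adjusted p = 8.22e-04). That deviation comes from these same libraries, and this was the only 1 of 21 settings that called *Slpi* at 32 µM.

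*Lyz1* and *Lyz2* are neighbouring copies on chromosome 10 and were the members with the most reads. *Lyz2* (ENSMUSG00000069516, chr10:117277331-117282321, minus strand, 1316 nt) is the lysozyme of macrophages, and *Lyz1* (ENSMUSG00000069515, chr10:117287797-117292868, minus strand, 1263 nt) is best known from Paneth cells of the gut. The transcripts were 96% identical over 1262 aligned bases, the longest identical run was 118 nt, and 0 of 1114 windows of 150 nt in *Lyz1* recurred in *Lyz2*. How the counting treated reads that match both genes is not stated, so the split of reads between them is uncertain. The first 120 bases of the coding sequence, of 444 nt in each, are shown with the 11 positions that differ in capitals, since the counts of both genes depend on such positions. Over the whole coding sequence 22 positions differ. Both stretches are from GENCODE M21.
Lyz1: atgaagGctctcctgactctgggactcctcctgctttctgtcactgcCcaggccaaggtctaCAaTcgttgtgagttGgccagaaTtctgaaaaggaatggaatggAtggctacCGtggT
Lyz2: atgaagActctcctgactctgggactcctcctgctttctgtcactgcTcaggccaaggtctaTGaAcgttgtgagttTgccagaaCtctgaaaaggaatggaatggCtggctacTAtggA

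*Lyz2* held 6841 and 6066 CPM in DMSO and 4093 and 4160.3 CPM in DMSO + LPS. With **1** it held 3801 and 3728 CPM at 3.2 µM, 3486 and 3023 CPM at 10 µM, and 2828 and 2585 CPM at 32 µM. The 5 groups did not overlap, in the order DMSO, DMSO + LPS, 3.2, 10 and 32 µM from high to low.

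*Lyz2* fell 1.56-fold with LPS (log2 -0.64, SE 0.0813, adjusted p = 2.77e-04) and a further 1.52-fold at 32 µM (log2 -0.61, SE 0.0812, adjusted p = 0.00238). Both values are close to the fold cutoff. The first was -0.56 without replicate 1 of DMSO and the second -0.55 without replicate 2 at 32 µM, and neither was then called. The second was also lost with the short-transcript deviation in the fit (-0.58), which is below the fold cutoff. The differences from DMSO + LPS were -0.34 at 10 µM (adjusted p = 0.0876) and -0.13 at 3.2 µM (adjusted p = 0.999). Without replicate 1 at 10 or 3.2 µM they were -0.45 (adjusted p = 0.0453, below the fold cutoff) and -0.15. Between DMSO and 32 µM with LPS the decrease was 2.38-fold (adjusted p = 6.70e-06).

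*Lyz1* held 2453 and 2167 CPM in DMSO and 1604 and 1632 CPM in DMSO + LPS. With **1** it held 1605 and 1573 CPM at 3.2 µM, 1542 and 1288 CPM at 10 µM, and 1300.1 and 1156 CPM at 32 µM. The LPS libraries lay below DMSO, and those at 32 µM lay below DMSO + LPS but overlapped with 10 µM.

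*Lyz1* differed by -0.51 with LPS (adjusted p = 0.00259) and by -0.40 at 32 µM (adjusted p = 0.0402), both below the 1.5-fold cutoff. The first passed the cutoff under 3 of 20 settings, at -0.72 with library size alone, -0.60 with the short-transcript deviation in the fit and -0.62 without replicate 2 of DMSO. Without replicate 2 at 32 µM the second was -0.32 (adjusted p = 0.214). At 10 and 3.2 µM the differences from DMSO + LPS were -0.19 and -0.03, and without replicate 1 at these doses -0.33 and -0.04, with none called. Between DMSO and 32 µM with LPS *Lyz1* fell 1.88-fold (adjusted p = 1.11e-04). With the counts of both genes summed, lysozyme changed by -0.61 with LPS (adjusted p = 4.94e-04) and by -0.55 at 32 µM (adjusted p = 0.00504, below the fold cutoff). The sum does not depend on how counted reads were split between the genes, but it would on reads dropped or counted in both.

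The share of *Lyz1* in the reads of both lysozymes was 26.4% and 26.3% in DMSO and 28.2% in both DMSO + LPS libraries. At 3.2 µM it was 29.7% in both libraries, at 10 µM it was 30.7% and 29.9%, and at 32 µM it was 31.5% and 30.9%. Each group with LPS lay above DMSO, and all libraries with **1** lay above those with LPS alone. Together the lysozymes took between 0.923% and 1.04% of all reads in DMSO and between 0.359% and 0.408% at 32 µM.

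**Figure D4:**
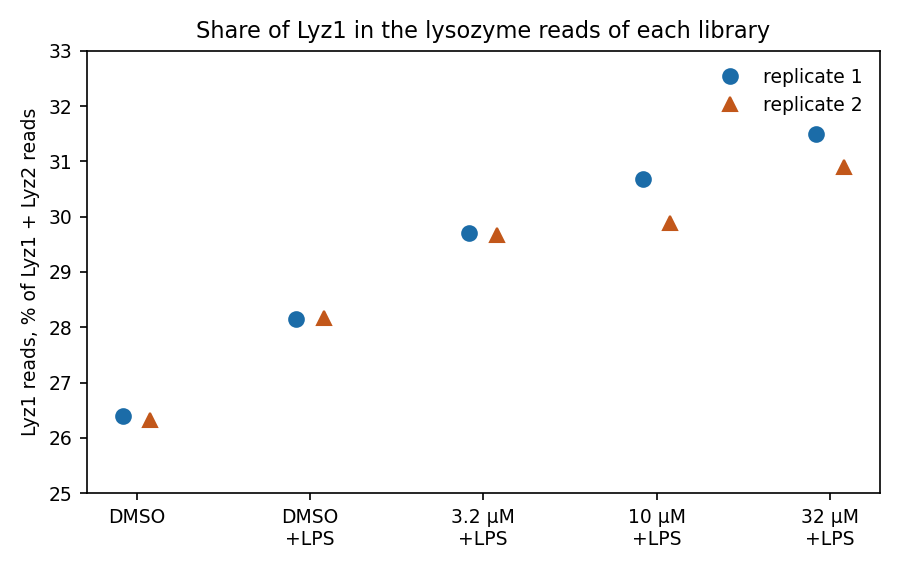
Reads of *Lyz1* as a percentage of the reads of *Lyz1* and *Lyz2* in each library (axis from 25 to 33%). Circles are replicate 1 and triangles replicate 2, and the share was 26.3 to 26.4% in DMSO, 28.2% in DMSO + LPS and 30.9 to 31.5% at 32 µM.

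Per kilobase of transcript, in DMSO + LPS the levels were 3136 ± 36.1 CPM per kb for *Lyz2* and 1281 ± 15.8 for *Lyz1* (SD, n = 2, here and below). *Saa3* followed with 425 ± 24.7 CPM per kb, *Lcn2* with 63.3 ± 0.695, *Wfdc17* with 60.0 ± 0.371 and *Slpi* with 3.75 ± 0.0908. In DMSO the order below the lysozymes was *Wfdc17* with 1.64 ± 0.969 CPM per kb, *Saa3* with 0.310 ± 0.169, *Slpi* with 0.0881 ± 0.0676 and *Lcn2* with 0.00963 ± 0.0136. At 32 µM *Saa3* was at 203 ± 41.7 CPM per kb, *Lcn2* at 16.6 ± 0.648, *Wfdc17* at 10.5 ± 3.47 and *Slpi* at 6.34 ± 2.29, so that the latter 3 lay closer together than with LPS alone.

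Cells given 32 µM of **1** with LPS still differed from DMSO in all 6 genes, 4 higher and 2 lower, beside 27.1% of all genes called (13.9% higher and 13.3% lower). *Lcn2* gave a count ratio of 1755 to DMSO (exact 95% counting interval 315 to 69384). *Saa3* was 641-fold higher (adjusted p = 1.17e-07), *Slpi* 69.3-fold (adjusted p = 6.70e-05) and *Wfdc17* 6.34-fold (adjusted p = 5.66e-04). With either DMSO library or replicate 2 at 32 µM left out, the log2 values were 8.84 to 10.02 for *Saa3*, 5.48 to 7.20 for *Slpi* and 2.14 to 3.44 for *Wfdc17*, and all 6 genes stayed called.

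The genes whose log2 CPM followed each member most closely over the 10 libraries, among 9562 genes with a mean of at least 5 CPM, are named as a description. All such correlations share the step between the DMSO libraries and those with LPS. For *Lcn2* they were *Tnfrsf8*, *Slc15a3* and *Il1b* (Pearson's r = 0.999 for each), and for *Saa3* *Nfkbia*, *Csf3* and *Pim1* (r = 0.999 for each). For *Wfdc17* they were the interferon-stimulated genes *Sp110*, *Oas1g* and *Dhx58* (r = 0.993 to 0.996). For *Slpi* they were *Ninj1*, *Pak1ip1* and *Lims2* (r = 0.997 to 0.998). *Lyz1* was followed most closely by *Itm2b*, *Ctss* and *Lyz2* (r = 0.992 to 0.996), and *Lyz2* by *Gusb*, *Mvk* and *Lyz1* (r = 0.992 to 0.994).

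Most other acute-phase protein genes were below the filter on low counts, which 5 of 29 passed. With LPS 3 rose and 1 fell, beside 14.6% and 13.6% of all genes, and at 32 µM 0 rose and 2 fell, beside 1.27% and 2.91%. Of the 3, *Serpina3f* and *Hp* were at most at 0.0510 CPM in DMSO and passed the filter only through libraries with LPS. A fall with LPS could hardly be called for them. Of the 5, *Saa1* had 0 counts in DMSO + LPS and at 32 µM and passed the filter through replicate 1 at 3.2 µM (0.755 CPM) and at 10 µM (5.09 CPM), so no median is given. *Serpina3f*, a serine peptidase inhibitor, rose with LPS from 0.0176 to 2.22 CPM (log2 6.81, adjusted p = 5.45e-05) and fell at 32 µM to 0.408 ± 0.143 CPM (log2 -2.45, adjusted p = 0.0106). *Nptxr*, a membrane pentraxin, fell with LPS from 6.09 to 3.29 CPM (log2 -0.89, adjusted p = 0.00353).

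Of 38 other antimicrobial genes 12 were tested. With LPS 7 rose and 3 fell, beside 14.6% and 13.6% of all genes, and at 32 µM 1 rose and 2 fell, beside 1.27% and 2.91%. Of the 7, *Camp*, *Bpi* and *Pglyrp3* were at most at 0.0340 CPM in DMSO and passed the filter only through libraries with LPS. A fall with LPS could hardly be called for them. Of the 12, *Lypd8* and *Pglyrp1* passed the filter through replicate 1 at 3.2 and at 10 µM and had at most 1 count per library in DMSO + LPS and at 32 µM, so no median is given. *Acod1*, the itaconate-producing enzyme, rose from 6.56 to 3466 CPM with LPS (log2 9.05, adjusted p = 4.13e-11), and *Rnase4*, a secreted ribonuclease, fell from 10.5 to 0.963 CPM (log2 -3.45, adjusted p = 5.94e-06). *Pglyrp3*, a peptidoglycan recognition protein, had 0 counts in DMSO, 0.464 CPM in DMSO + LPS, 1.03 and 1.19 CPM at 10 µM and 3.02 ± 0.0114 CPM at 32 µM (log2 2.69 over DMSO + LPS, adjusted p = 5.10e-04). In contrast, *S100a8*, a subunit of the metal-binding protein calprotectin, changed by -1.74 at 32 µM (6.35 to 1.89 CPM, adjusted p = 0.0257) and *Mpeg1*, the pore-forming perforin-2, by -0.60 (1015 to 668 CPM, adjusted p = 2.43e-04).

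Of 19 other whey acidic protein domain genes 2 were tested. *Wfdc18*, described above, was called with LPS, a call that could only be a rise. *Wfdc2* had 0 counts in DMSO and DMSO + LPS and passed the filter through replicate 1 at 3.2 µM (0.259 CPM) and at 10 µM (1.59 CPM), so it could not be called for LPS. In these lists 8 genes with at least 10 counts in a library held more of their CPM in 1 library than in the other 9 together, namely in replicate 1 at 10 µM. They are named after their values were seen and are *Saa1* and *Serpina3n*, *Ltf*, *S100a9*, *Pglyrp1*, *Chil4* and *Lypd8*, and *Wfdc2*.

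All 26 regulators and receptors of these proteins were tested. With LPS 12 rose and 5 fell, beside 14.6% and 13.6% of all genes, and at 32 µM 0 rose and 5 fell, beside 1.27% and 2.91%, with a median of -0.12 beside 0.01 over all genes. Of the 12, *Il6*, *Fpr1* and *Fpr2* were at most at 0.0176 CPM in DMSO and passed the filter only through libraries with LPS. A fall with LPS could hardly be called for them. *Nfkbiz* rose from 6.05 to 171 CPM with LPS (log2 4.82, adjusted p = 7.78e-09) and was at 107 ± 4.56 CPM at 32 µM (log2 -0.68, adjusted p = 9.41e-04). The cytokine genes *Il6* and *Il1b* changed by -1.89 (adjusted p = 1.06e-04) and -1.69 (adjusted p = 5.43e-07) at 32 µM. The C/EBP genes, named after their values were seen, differed at 32 µM by 0.33 for *Cebpa* (adjusted p = 0.00586), 0.01 for *Cebpb* (adjusted p = 0.996), -0.58 for *Cebpd* (adjusted p = 0.00145) and 0.30 for *Cebpe* (adjusted p = 0.0916), and none passed the fold cutoff. *Cebpb* was at 200.5 and 134.6 CPM at 32 µM, on either side of 152.7 and 180.5 CPM in DMSO + LPS, so its change was not resolved.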

How the data were processed

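RNA from RAW264.7 cells was sequenced in 10 libraries, 2 for each of 5 groups. Per the study's methods, poly(A) RNA was made into directional libraries and sequenced with 2 × 150 cycles. The authors deposited raw read counts per mouse Ensembl gene, without normalization. The submitters' processing notes name Trimmomatic, FastQC, STAR, DESeq2 and mm10. Their versions, and the counting tool, annotation and strand setting, are not given in the sources used here.

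Groups came from the labels. GENCODE M21 gave symbols and positions (42548 of 43432 identifiers matched) and RefSeq GRCm38.p6 the promoters. Counts were filtered by filterByExpr (minimum count 10), scaled by TMM and fitted with 1 mean per group in edgeR 4.0.16 (R 4.3.3, limma 3.58.1). P-values were adjusted over 14172 genes by the Benjamini-Hochberg method. Alternatives used DESeq2 1.42.0 among others. On simulated data for 32 µM against DMSO + LPS (13667 genes, 2-fold and 4-fold changes), 88 of 100 and 96 of 100 changed genes were recovered with 6 false calls. The simulated libraries were drawn independently around the DMSO + LPS mean, and only genes of at least 1 CPM were changed. They held neither the short-transcript differences nor the epithelial genes, so these rates do not cover genes that such differences move. The 8 genes and all lists were chosen with earlier results of these data known. All 8 were described in every comparison, and of each list at most 3 called genes with the largest change and a mean of at least 1 CPM were named, for LPS and for 32 µM. Genes named for how they passed the filter were outside this rule.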

Additional observations from a re-analysis of the deposited data

How the results depend on the processing

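The counts of called members were recomputed under 21 settings, among them DESeq2's size factors and Wald test, library size alone, no count filter, a 2-fold cutoff, the 4 libraries compared alone, *Lyz1* and *Lyz2* summed, a short-transcript covariate and leaving out each library, where the lone library is assumed to vary like the other groups. With a library left out, the members called were 4 to 6 for LPS, 3 to 4 at 32 µM, 0 to 1 at 10 µM, 0 at 3.2 µM, 1 to 2 from 10 to 32 µM, 0 to 1 from 3.2 to 10 µM and 6 for 32 µM against DMSO. At 10 µM, where the main count was 1, it was 2 without the count filter, 2 with DESeq2's test, 3 with the covariate, 0 with a 2-fold cutoff and 0 on the 4 libraries. The steps from 10 to 32 µM and from 3.2 to 10 µM, each with 1 call, gave 2 without the filter, with DESeq2's test or with the covariate, and 0 with a 2-fold cutoff or on the 4 libraries. The counts for LPS, 32 µM and 32 µM against DMSO stayed within 1.5 times of the main ones.

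The replicate block on all 10 libraries gave 2 calls at 10 µM and 2 from 10 to 32 µM, the second being *Wfdc17* (-1.07, adjusted p = 0.0363, and -1.47, adjusted p = 0.0128), and changed no other member's call. Deviations of same-numbered libraries correlated by 0.30 to 0.83 among 4 groups but by -0.17 to -0.42 with DMSO + LPS, and the labels tie no number to a shared culture or day, so the numbers were not taken to pair the libraries. With the numbers of DMSO + LPS crossed, chosen after seeing the data, the block gave 2, 2 and 2 calls at 10 µM and for both steps.

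Directions turned for differences that were not called. With the covariate, *Saa3* was at -0.0903, *Slpi* at -0.0082 and *Wfdc17* at -0.19 at 3.2 µM, and *Slpi* at 0.31 from 10 to 32 µM. With libraries left out, *Saa3* at 3.2 µM ranged from -0.0097 (without DMSO + LPS replicate 1) to 0.1087, and was also below 0 without replicate 1 at 3.2 µM. *Slpi* ranged from -0.52 to 0.61 from 10 to 32 µM (above 0 without replicate 1 at 10 µM or replicate 2 at 32 µM) and from -0.25 to 0.95 from 3.2 to 10 µM (below 0 without replicate 1 at 10 µM). The cause was not tested.

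Over all genes the calls ranged from 2426 to 4520 for LPS (3995), 317 to 771 at 32 µM (592), 36 to 230 at 10 µM (122), 0 to 66 at 3.2 µM (0), 5 to 292 from 10 to 32 µM (187), 0 to 109 from 3.2 to 10 µM (36) and 2245 to 4288 for 32 µM against DMSO (3847). With 2 libraries per group, small changes at 3.2 µM and the levels of *Ptx3* and *Wfdc21* could not be resolved at this depth.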

Other observations

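Replicate 1 at 10 µM held 56 genes with at least 50 counts there and at most 1 count in each of 8 other libraries. Their 6393 counts in this library stood beside 830 counts (13%) in replicate 1 at 3.2 µM, the one library left free in this count. The genes with the most counts were *Tff3* (347), *Oit1* (261), *Krt10* (254) and *Spink1* (228). *Tff3* encodes a peptide of intestinal mucus and *Krt10* a keratin of the epidermis. These genes were chosen after their values were seen, and their source was not tested.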
